A study of Homo sapiens with 4 samples.

Results

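The matrix metalloproteinases (MMPs), the ADAM and ADAMTS proteases and the tissue inhibitors of metalloproteinases (TIMPs) were followed in LoVo cells with and without the receptor MET. Members were taken by symbol alone, as protein-coding genes of GENCODE version 29 named MMP or ADAM with a number, TIMP with a digit, or starting with ADAMTS. This gave 70 genes of the 58825 Ensembl genes in the count files, namely 22 MMP, 4 TIMP, 20 ADAM, 19 ADAMTS and 5 ADAMTS-like (ADAMTSL) genes. LoVo is an established human line from a colorectal adenocarcinoma, grown here in DMEM with 10% fetal bovine serum. The comparison is of 2 MET+ libraries, described by their labels as GFP control cells of wild-type genotype, with 2 libraries of MET-KO cells made by CRISPR/Cas9 editing of MET from picked single clones. The study does not say whether both MET-KO libraries come from 1 clone, and the labels call the samples biological replicates without naming separate cultures. The p-values therefore measure the spread between these samples, which may be technical, and what a clone carries besides its MET edit cannot be told apart from an effect of MET.

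RNA was read by the QuantSeq method, which counts tags from transcript 3' ends, so that levels of different genes can be compared without a correction for length. Levels are given in CPM, a gene's counts relative to the size of its library after TMM scaling, and folds compare MET-KO with MET+ cells. The libraries held 8429142 to 10286552 counts, and a count of 0 leaves room for 3 counts, or 0.276 to 0.363 CPM. MET mRNA stood at 337.6 and 335.8 CPM in MET+ and at 84.4 and 88.9 CPM in MET-KO cells (log2 fold change -1.96, standard error 0.09, adjusted p = 1.49e-18 by the quasi-likelihood test of edgeR, Benjamini-Hochberg adjusted), and since reads from the 3' end do not cover the edited site they do not test the edit. The 45 protein-coding genes of chromosome Y summed to 0 counts in both MET+ libraries, against 6773 and 6756 in MET-KO. Of all genes tested, 26.9% were called lower and 27.2% higher in MET-KO cells at an adjusted p of 0.05 by the same test. Of 16 intestinal epithelial marker genes, 14 were tested, 11 were called lower in MET-KO cells and 2 were called higher. The higher ones were CDX2 (log2 fold change 1.04) and KRT20, with 0 and 0 counts in MET+ against 27 and 28. CEACAM5, CDH17 and GPA33 were at 0 counts in both MET-KO libraries. The list's summed level, most of it KRT18, fell from 9833 and 9863 CPM in MET+ to 8322 and 7337 CPM in MET-KO libraries. Markers of other cell types were scarce, with sums of 1.64 and 2.18 CPM in MET+ and 3.82 and 4.33 CPM in MET-KO libraries over 10 fibroblast genes, mostly COL1A1 and COL3A1, with COL1A2 and DCN at 0. The sums were 0.846 and 0.924 against 0 and 0.0981 CPM over 6 endothelial genes, with CDH5 and KDR at 0, and 6.16 and 10.1 against 0.981 and 1.47 CPM over 8 leukocyte genes, mostly LYZ in MET+ and CD68 in MET-KO libraries, with PTPRC at 0 throughout. Their part in the results was not tested, and in these bulk samples fewer cells with a transcript and less of it per cell cannot be told apart.

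MMPs are zinc-dependent enzymes that cut collagens, other matrix proteins and cell surface proteins, some secreted and some, the membrane-type MMPs, anchored in the plasma membrane. ADAMs are membrane proteins, of which those with an active site release the outer part of growth factors, receptors and adhesion molecules (shedding), whereas ADAMTS proteases are secreted and act on the matrix. TIMPs bind and block the active site. In the gut, many secreted MMPs come from stromal and inflammatory cells, whereas epithelial cells carry membrane-type MMPs and shedding ADAMs.

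Promoter sequences of 43 of the 70 genes were found by symbol in the RefSeq table of GRCh38.p14, each covering 250 bases before and 50 bases after the transcription start. The first 3 below belong to genes that were at or near 0 counts in 1 of the groups, as described further on, and their CG pairs are in capitals. MMP24 (chr20:35226440-35226739, plus strand) has 37 such pairs, ADAM23 (chr2:206443282-206443581, plus strand) has 41, and ADAM19 (chr5:157575726-157576025, minus strand) has 26.
MMP24: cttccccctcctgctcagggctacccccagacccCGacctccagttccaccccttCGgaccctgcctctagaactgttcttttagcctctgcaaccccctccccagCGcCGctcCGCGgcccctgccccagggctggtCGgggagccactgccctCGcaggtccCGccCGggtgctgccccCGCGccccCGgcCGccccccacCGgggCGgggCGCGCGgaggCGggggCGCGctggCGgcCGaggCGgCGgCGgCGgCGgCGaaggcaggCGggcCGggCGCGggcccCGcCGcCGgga
ADAM23: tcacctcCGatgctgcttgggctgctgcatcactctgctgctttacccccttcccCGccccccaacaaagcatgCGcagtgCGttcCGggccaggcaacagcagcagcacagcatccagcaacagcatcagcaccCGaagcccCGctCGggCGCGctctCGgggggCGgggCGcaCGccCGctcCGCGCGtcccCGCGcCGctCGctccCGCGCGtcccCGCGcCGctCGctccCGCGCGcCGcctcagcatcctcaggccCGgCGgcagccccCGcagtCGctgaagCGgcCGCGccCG
ADAM19: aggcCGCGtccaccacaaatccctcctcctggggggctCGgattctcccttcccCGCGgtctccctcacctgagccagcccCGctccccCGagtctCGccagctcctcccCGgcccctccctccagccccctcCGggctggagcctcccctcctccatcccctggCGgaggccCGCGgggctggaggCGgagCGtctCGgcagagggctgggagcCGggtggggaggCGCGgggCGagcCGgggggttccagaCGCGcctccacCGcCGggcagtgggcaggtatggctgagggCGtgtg
By contrast, MMP7 (chr11:102530698-102530997, minus strand) and MMP10 (chr11:102780579-102780878, minus strand) belong to the chromosome 11 cluster of secreted MMPs, which had almost no reads. Their capitals mark a match to TGANTCA, the letters bound by AP-1, which starts 67 bases before the start site in both promoters.
MMP7: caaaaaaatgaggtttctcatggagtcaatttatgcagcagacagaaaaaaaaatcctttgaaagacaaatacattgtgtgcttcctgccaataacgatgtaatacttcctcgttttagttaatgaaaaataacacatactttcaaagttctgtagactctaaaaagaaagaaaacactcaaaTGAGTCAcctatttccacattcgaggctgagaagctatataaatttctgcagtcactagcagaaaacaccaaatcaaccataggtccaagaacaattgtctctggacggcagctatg
MMP10: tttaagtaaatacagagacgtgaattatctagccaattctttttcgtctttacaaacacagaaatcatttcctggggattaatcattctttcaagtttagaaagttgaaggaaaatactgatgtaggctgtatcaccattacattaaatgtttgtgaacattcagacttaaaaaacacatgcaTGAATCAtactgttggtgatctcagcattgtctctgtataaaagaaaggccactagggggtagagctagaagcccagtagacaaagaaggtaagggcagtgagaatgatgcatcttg
Tested members as a group had promoters rich in G and C, with a median GC content of 74.3% and a median of 30 CG pairs in 19 promoters. The 16 matched promoters of members at 0 counts had medians of 57.5% and 14 pairs, close to the 58.3% and 14 pairs of all 27305 promoters. TGANTCA, searched on both strands, occurred in 7.76% of all promoters, in 0 of the 19 tested members and in 3 of the 16 at 0. GGAATG, the letters bound by TEAD factors searched in the same way and able to overlap an AP-1 match by its last letters TG, occurred in 14.0% of all promoters and in 2 of the 19 tested members, ADAM17 and ADAMTS13. A match, or the lack of one, describes these letters in this window and nothing more.

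Most of the family had no reads or too few for a test. Of the 70 genes, 28 were at 0 counts in all 4 libraries, 16 more had too few counts to be tested, and 26 passed the filter on low counts. Among these 26, edgeR's quasi-likelihood test called 19 at an adjusted p of 0.05 (73.1%, against 54.1% of all 13801 genes tested), 14 higher and 5 lower in MET-KO cells, where 27.2% and 26.9% of all tested genes were called higher and lower. The groups did not overlap for 22 of the 26 genes, against 75.6% of all tested genes, and 15 were called with a log2 fold change of at least 1 in size, against 24.3%. The median log2 fold change of the 26 was 0.53, against 0.01 over all tested genes. The filter keeps a gene that is high in a single group, and 7 of the 26 reached 10 counts in every library of 1 group alone, so these counts describe the genes tested and not the family of 70.

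**Figure D1:**
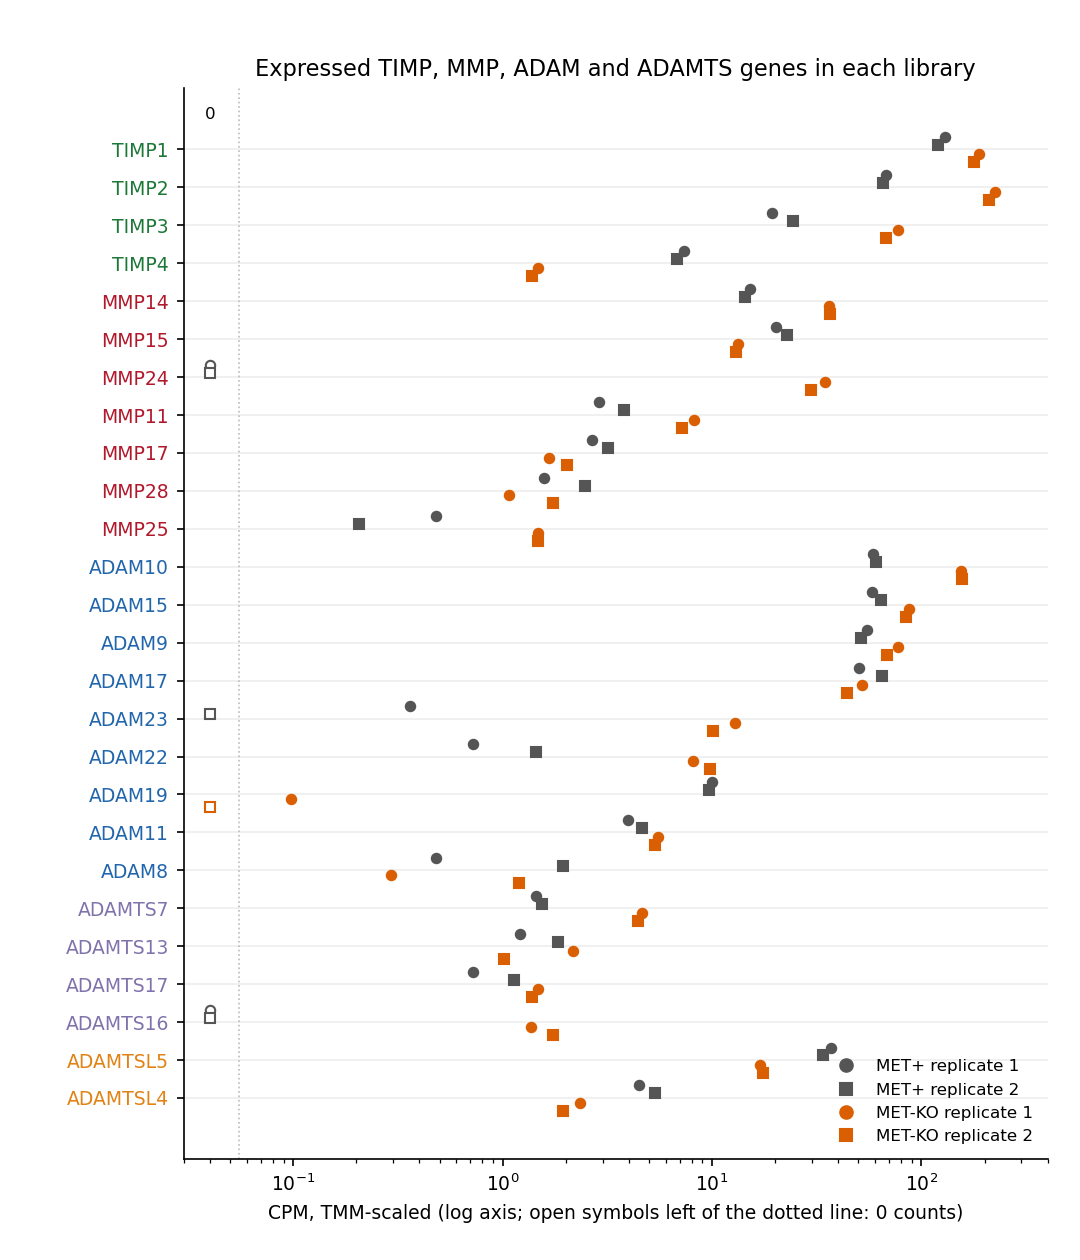
Level of each tested gene (rows, coloured by family) in the 4 libraries, in TMM-scaled CPM on a log axis, with MET+ in grey and MET-KO in orange, circles for replicate 1 and squares for replicate 2, and libraries with 0 counts as open symbols left of the dotted line. TIMP1, TIMP2, ADAM10, ADAM15, ADAM9 and ADAM17 lie above 40 CPM in every library, whereas MMP24 and ADAMTS16 are at 0 in both MET+ libraries.

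All 4 inhibitors were expressed and all 4 were called, beside 54.1% of all tested genes. TIMP1 to TIMP3 rose and TIMP4 fell. TIMP1 (chromosome X, 47582313 to 47586789), the inhibitor that also binds the proform of MMP9, stood at 129 and 120 CPM in MET+ and at 188 and 178 CPM in MET-KO libraries. The increase was the smallest of the 3 (log2 fold change 0.56, standard error 0.09, adjusted p = 5.96e-06). TIMP2 (chromosome 17, 78852977 to 78925387), which inhibits MMPs and also takes part in the activation of the proform of MMP2 by MMP14, went from 67.8 and 65.2 CPM to 224 and 210 CPM. It thereby overtook TIMP1 in both MET-KO libraries (log2 fold change 1.71, standard error 0.10, adjusted p = 1.66e-16). TIMP3 (chromosome 22, 32801701 to 32863043), which stays bound to the matrix and also inhibits ADAM10 and ADAM17, had 19.3 and 24.4 CPM in MET+ and 76.9 and 68.0 CPM in MET-KO cells, a rise like that of TIMP2 within its error (log2 fold change 1.72, standard error 0.13, adjusted p = 1.65e-13). TIMP4 (chromosome 3, 12153051 to 12159351), the scarcest of the 4, went the other way, from 7.37 and 6.77 CPM to 1.47 and 1.38 CPM (log2 fold change -2.30, standard error 0.35, adjusted p = 1.27e-06). For none of the 4 genes did the groups overlap, which held for 75.6% of all tested genes.

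The sum of the 4 genes rose from 220 ± 5.30 to 474 ± 23.5 CPM (SD, n = 2 each), 2.15-fold, and its make-up shifted. TIMP1 held 57.7% and 55.4% of the TIMP counts in MET+ cells and 38.4% and 38.9% in MET-KO cells. TIMP2 held 30.3% and 30.2% against 45.6% and 45.9%, and so became the most abundant. TIMP3 held 8.65% and 11.3% against 15.7% and 14.9%. TIMP4 held 3.30% and 3.14% in MET+ cells. Each TIMP gene but TIMP2 overlaps a synapsin gene on the other strand, a known arrangement of these gene pairs, and the strand setting of the counting is not stated. SYN1, within which TIMP1 lies, had 13 and 17 counts in MET+ and 139 and 139 in MET-KO libraries (log2 fold change 2.98, adjusted p = 1.14e-10). TIMP1 itself had 1068 to 1932 counts. SYN2, opposite TIMP4, had 3 counts in 1 library, and SYN3, opposite TIMP3, had 0.

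Among the MMPs, nearly all reads came from the membrane-type class, which held 88.9%, 85.8%, 90.3% and 89.8% of MMP counts in the 4 libraries. Of its 6 genes 5 were tested, and 3 rose, 1 fell and 1 was not called. Of all tested genes, 27.2% were called higher and 26.9% lower. MMP14 (chromosome 14, 22836557 to 22849027), a collagenase of the cell surface, had 15.2 and 14.4 CPM in MET+ and 36.2 and 36.5 CPM in MET-KO libraries, with no overlap (log2 fold change 1.30, standard error 0.15, adjusted p = 3.12e-09). MMP15 (chromosome 16, 58025566 to 58046901), a close relative with a transmembrane segment, was the most abundant MMP of MET+ cells at 20.2 and 22.7 CPM. It fell to 13.2 and 13.0 CPM in MET-KO cells (log2 fold change -0.71, standard error 0.17, adjusted p = 0.000575), so that MMP14 took its place at the top. The share of MMP15 in the MMP counts went from 46.5% and 48.1% to 13.7% and 14.1%, while that of MMP14 was 35.1% and 30.5% against 37.4% and 39.6%.

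MMP24 (chromosome 20, 35226654 to 35277000), a membrane-type MMP best known from the nervous system, was counted only in the MET-KO libraries. It had 0 and 0 counts in MET+ and 355 and 322 counts (34.8 and 29.7 CPM) in MET-KO cells, at least 96.1-fold higher with 3 counts per library as the limit in MET+ cells (adjusted p = 9.07e-19). This placed it beside MMP14 in level. Its annotation lies within that of MMP24OS on the other strand, which had 92 and 120 counts in MET+ and 250 and 265 in MET-KO libraries (log2 fold change 1.06, adjusted p = 2.17e-06). Whether reads of MMP24OS were counted for MMP24 was not tested, and the strand setting of the counting is not stated. The promoter of MMP24, shown above, is the richest in GC of the 3 printed with CG pairs, at 80.0%.

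The other membrane-type genes were scarce. MMP25 (chromosome 16, 3046681 to 3060726), held by a lipid anchor and known from neutrophils, had 4 and 2 counts in MET+ and 15 and 16 in MET-KO libraries (log2 fold change 2.10, standard error 0.67, adjusted p = 0.00825). This call was lost with DESeq2's Wald test (adjusted p = 0.0878) and in 3 of the 4 fits that left out a library. It held without MET+ replicate 1, where the log2 fold change was 2.77, against 1.57 without MET+ replicate 2. It overlaps MMP25-AS1, which had 45 and 67 counts in MET+ and 77 and 76 in MET-KO libraries and was not called. MMP17, the other lipid-anchored gene, had 2.66 and 3.18 CPM in MET+ against 1.67 and 2.03 CPM and did not pass the test (log2 fold change -0.66, standard error 0.42, adjusted p = 0.189). MMP16 was at 0.

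Of the secreted MMPs, MMP11 (chromosome 22, 23768226 to 23784316) and MMP28 alone had enough reads to be tested. MMP11, an enzyme that is activated inside the cell by furin-like proteases and acts on serpins rather than on the main collagens, rose from 2.90 and 3.80 CPM to 8.24 and 7.18 CPM (log2 fold change 1.19, standard error 0.29, adjusted p = 0.000856). Its start overlaps that of CHCHD10 on the other strand, a gene with 8204 to 13909 counts that moved the opposite way (log2 fold change -0.76). MMP28, found in skin and gut epithelium, had 1.57 and 2.46 CPM in MET+ and 1.08 and 1.75 CPM in MET-KO libraries, so that the groups overlapped (log2 fold change -0.52, adjusted p = 0.376).

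The collagenases MMP1, MMP8 and MMP13, the gelatinases MMP2 and MMP9, and the stromelysins, matrilysins and elastase MMP3, MMP7, MMP10, MMP12 and MMP26 could not be tested. None of these 10 genes had more than 2 counts in a library. MMP7, which intestinal tumour cells often express, had 2 and 2 counts in MET+ and 0 and 0 in MET-KO libraries, a difference not detectable at this depth. MMP13 had 1, 2, 1 and 2 counts. The gelatinases had at most 2 counts, each in a MET-KO library. Of these genes, 7 share a cluster on chromosome 11 (102520508 to 102955734) with MMP20 and MMP27, and of the 9 genes of the cluster 7 were at 0.

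The neighbours of that cluster were not silent. Within 1 Mb of it 10 genes were tested, with a median log2 fold change of 1.55. Of these, 8 were called higher in MET-KO cells and 0 lower, beside 27.2% of all tested genes called higher. YAP1 was among the 8 (log2 fold change 0.88). BIRC3, an inhibitor of apoptosis on one side of the cluster, had 17 and 20 counts in MET+ and 603 and 654 in MET-KO libraries (log2 fold change 4.85). On the other side, DCUN1D5 lay nearest, with 486 and 539 against 489 and 519 counts, and was not called (log2 fold change -0.25). DYNC2H1, farther out, had 27 and 23 against 89 and 115 counts (log2 fold change 1.79). The MMP genes of the cluster had at most 2 counts in every library of either group.

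The MMP sum was set beside that of the inhibitors, and the outcome hinges on MMP24. MMP24, at 0 counts in MET+, held 36.0% and 32.2% of the MMP counts in MET-KO libraries. The ratios below depend on this gene, and they were not computed without it. Taking its 355 and 322 counts out of the 987 and 999 MMP counts would raise the TIMP counts per MMP count in MET-KO libraries. It would leave those of MET+ libraries as they are, so the overlap reported below holds only with MMP24 included. MMP genes summed to 45.2 ± 2.64 CPM in MET+ cells, against 94.4 ± 3.38 CPM without MET (SD, n = 2 each), 2.09-fold. There were 5.15 and 4.59 TIMP counts for each MMP count in MET+ libraries and 5.07 and 4.97 in MET-KO libraries, and the groups overlapped (exact two-sided permutation test, p = 1). When ADAM and ADAMTS genes were added to the denominator, the ratio was 0.776 and 0.693 in MET+ and 0.968 and 0.945 in MET-KO libraries, and the groups did not overlap. The exact two-sided permutation test gave p = 0.333, the smallest that 2 libraries against 2 allow. These are ratios of transcripts, and the amount or activity of the proteins was not measured.

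The ADAM reads came almost entirely from 4 widely expressed sheddases, ADAM9, ADAM10, ADAM15 and ADAM17, which held 92.9% to 93.4% of ADAM counts in every library. Of these, 3 rose and ADAM17 was not called, beside 27.2% of all tested genes called higher. ADAM10 (chromosome 15, 58588807 to 58749978), the sheddase of Notch receptors, E-cadherin and CD44, went from 59.0 and 60.7 CPM in MET+ to 153.5 and 156.6 CPM in MET-KO libraries. The rise was well outside the spread (log2 fold change 1.37, standard error 0.10, adjusted p = 7.5e-14), and its share of the ADAM counts went from 24.8% and 23.5% to 38.7% and 41.1%. ADAM17 (chromosome 2, 9488486 to 9556732), which releases TNF and several ligands of the EGF receptor, had 50.4 and 64.6 CPM in MET+ and 52.0 and 44.2 CPM in MET-KO libraries. The groups overlapped (log2 fold change -0.26, standard error 0.12, adjusted p = 0.0684). Without MET+ replicate 1 or without MET-KO replicate 1, ADAM17 was called lower, with adjusted p of 0.00637 and 0.0198.

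The 2 other sheddases rose less than ADAM10. ADAM15 (chromosome 1, 155050566 to 155062775), which carries an integrin-binding motif, had 57.9 and 63.9 CPM in MET+ and 87.2 and 84.5 CPM in MET-KO libraries (log2 fold change 0.49, standard error 0.10, adjusted p = 0.000148). ADAM9 (chromosome 8, 38996869 to 39105144) had 55 and 51.4 CPM in MET+ and 76.9 and 68.5 CPM in MET-KO libraries (log2 fold change 0.45, standard error 0.11, adjusted p = 0.000695). In MET+ cells the range of ADAM17, 50.4 to 64.6 CPM, covered the other 3 genes, whereas in MET-KO cells ADAM10 stood above the others.

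Among the ADAM genes, ADAM19 and ADAM23 were each near 0 counts in 1 of the groups. ADAM19 (chromosome 5, 157395534 to 157575775), a sheddase of neuregulins with a role in heart valve formation, had 83 and 94 counts in MET+ and 1 and 0 in MET-KO libraries. The level was 207-fold lower in MET-KO cells, with a 95% counting interval of 36.7 to 8216 (adjusted p = 2.01e-12). ADAM19 overlaps NIPAL4, which had 8 and 9 counts in MET+ and 0 in MET-KO libraries, and CYFIP2, which moved the other way (log2 fold change 0.37). ADAM23 (chromosome 2, 206443539 to 206621130) had 3 and 0 counts in MET+ and 131 and 110 in MET-KO libraries, 68.7-fold higher with a counting interval of 23.2 to 336 (adjusted p = 4.81e-12). The fitted log2 fold change of ADAM23, 6.0, was 4.93 without MET+ replicate 2 and 9.88 without MET+ replicate 1, and that of ADAM19, -7.35, was -9.57 without MET-KO replicate 1 and -6.46 without MET-KO replicate 2. Both remained called in each of these fits.

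ADAM11, ADAM22 and ADAM23 are 3 ADAMs without a catalytic site that act as adhesion and receptor proteins, mainly in neurons. There, ADAM22 and ADAM23 bind the secreted protein LGI1. ADAM22 (chromosome 7, 87934143 to 88202889) had 6 and 14 counts in MET+ and 83 and 106 in MET-KO libraries, and rose as well (log2 fold change 3.0, standard error 0.36, adjusted p = 1.4e-08, and 3.60 without MET+ replicate 2). ADAM11 had 3.99 and 4.62 CPM in MET+ and 5.49 and 5.34 CPM in MET-KO libraries and did not pass the test (log2 fold change 0.33, adjusted p = 0.374). Together the 3 genes stood at 5.08 and 6.06 CPM in MET+ and at 26.5 and 25.2 CPM in MET-KO cells, still well below any of the 4 sheddases. ADAM8, known from leukocytes, had 4 and 19 counts in MET+ and 3 and 13 in MET-KO libraries, a spread within each group wider than the difference between them. The 11 remaining ADAM genes were not tested, and of these ADAM32 had the most counts, with 2 and 0 in MET+ and 5 and 4 in MET-KO libraries.

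**Figure D2:**
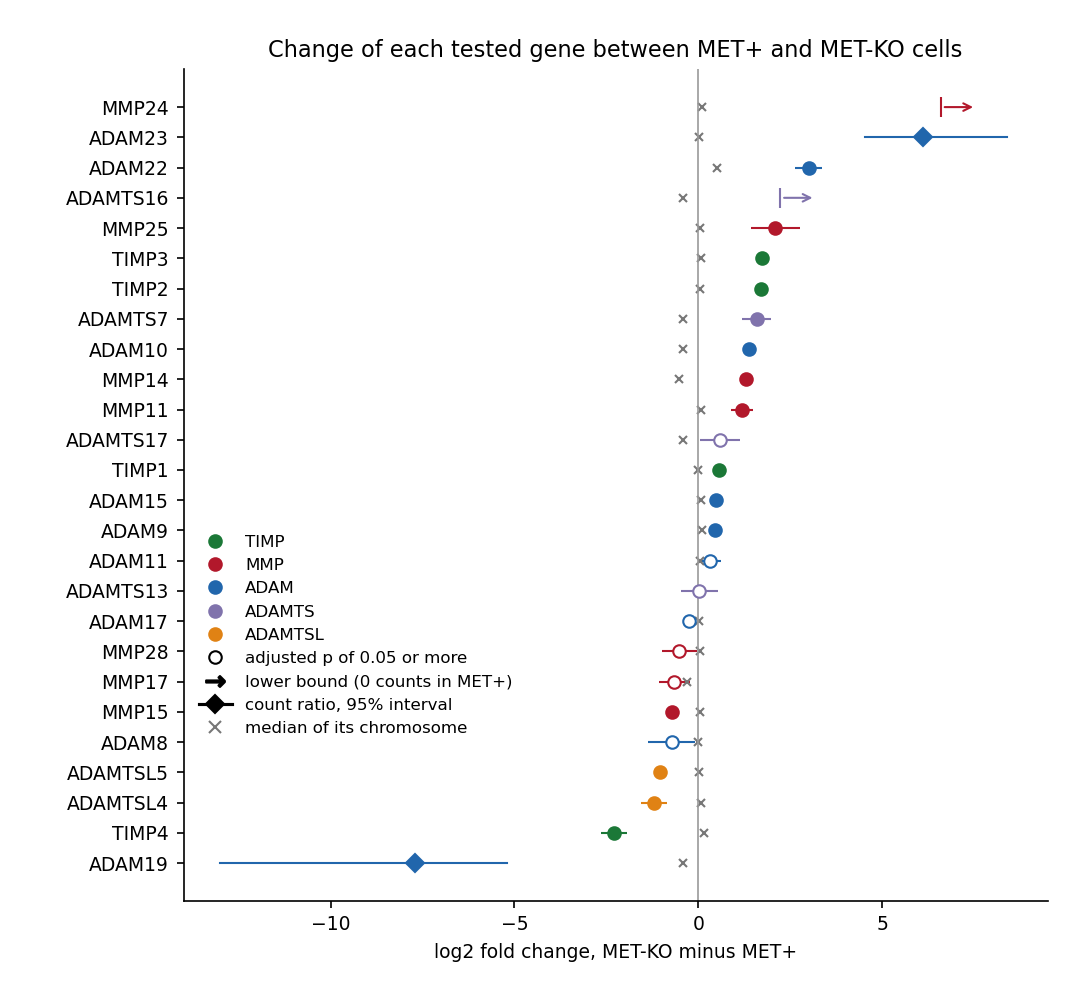
Log2 fold change (MET-KO minus MET+) of the 26 tested genes with 1 standard error, coloured by family, filled where the adjusted p is under 0.05; arrows are lower bounds for genes at 0 counts in both MET+ libraries, diamonds are count ratios with 95% counting intervals, and grey crosses are the median of the gene's chromosome. The 3 rising TIMP genes lie at 0.56 to 1.72 and TIMP4 at -2.30, and each of the 19 called genes lies farther from 0 than the median of its chromosome.

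The ADAMTS genes were expressed at low levels. Of 19 genes 4 were tested, and 2 rose and 2 were not called, beside 27.2% of all tested genes called higher. The sum of the 19 genes went from 6.40 ± 0.345 to 11.7 ± 1.46 CPM (SD, n = 2 each). ADAMTS7 (chromosome 15, 78759203 to 78811431), which cleaves cartilage oligomeric matrix protein, had 1.45 and 1.54 CPM in MET+ and 4.61 and 4.42 CPM in MET-KO libraries (log2 fold change 1.58, standard error 0.39, adjusted p = 0.00093). Its value is uncertain because pseudogene copies share its sequence, and 1 of them, ADAMTS7P4, had 5 and 0 counts in MET+ and 10 and 15 in MET-KO libraries. ADAMTS16 (chromosome 5, 5140330 to 5320304) had 0 and 0 counts in MET+ and 14 and 19 in MET-KO libraries, at least 4.66-fold higher (adjusted p = 2.52e-05). It did not pass the filter on low counts without MET-KO replicate 2 and was then not tested. ADAMTS13, the protease of von Willebrand factor, had 10 and 18 counts in MET+ and 22 and 11 in MET-KO libraries (log2 fold change 0.03, adjusted p = 0.970). ADAMTS17 had 6 and 11 counts in MET+ and 15 and 15 in MET-KO libraries and was not called (adjusted p = 0.368). Of the ADAMTS genes not tested, ADAMTS9 had the most counts, 5 and 4 in MET+ and 10 and 8 in MET-KO libraries.

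The ADAMTSL genes resemble ADAMTS proteases but have no protease domain. Of the 5, ADAMTSL1, ADAMTSL2 and ADAMTSL3 were at 0 counts in every library. The 2 tested genes both fell, beside 26.9% of all tested genes called lower. ADAMTSL5 (chromosome 19, 1505018 to 1513604), which binds fibrillin, fell from 36.9 and 33.8 CPM in MET+ to 17 and 17.6 CPM in MET-KO libraries (log2 fold change -1.03, standard error 0.14, adjusted p = 2.1e-07). ADAMTSL4 (chromosome 1, 150549369 to 150560937), which also binds fibrillin microfibrils, fell from 4.47 and 5.34 CPM to 2.35 and 1.93 CPM (log2 fold change -1.20, standard error 0.36, adjusted p = 0.00507), a call lost without MET-KO replicate 2 (adjusted p = 0.0676). The sum of the ADAMTSL genes was 40.2 ± 1.57 CPM in MET+ cells, against 19.4 ± 0.146 CPM without MET (SD, n = 2 each). In MET+ cells ADAMTSL5 alone stood above each of the 4 tested ADAMTS proteases and above every MMP.

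Since several chromosomes differed between the groups as a whole, each gene was set beside its chromosome and its neighbours. For all 19 called genes, the difference kept its sign when the median of the chromosome was subtracted. ADAM10, ADAMTS7 and MMP14 rose on chromosomes with medians below 0, namely -0.43 for chromosome 15 and -0.51 for chromosome 14. The 15 tested genes within 1 Mb of ADAM10 had a median log2 fold change of -0.44, the 16 near ADAMTS7 -0.49 and the 28 near MMP14 -0.24. ADAM22, by contrast, rose among rising neighbours on chromosome 7, which had a median of 0.50. The 11 tested genes within 1 Mb of ADAM22 had a median of 1.28, and 10 were called higher, beside 27.2% of all tested genes. ADAM22 exceeded the median of its chromosome by 2.5 on the log2 scale. ADAM19 moved with the sign of its neighbours, whose median was -0.68 over 6 genes. Those near MMP24, TIMP2 and ADAM23 had medians of 0.16, -0.02 and -0.16.

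A list of 31 genes that activate, bind, traffic or inhibit these proteases had 27 genes tested, of which 9 rose, 8 fell and 10 were not called (63.0% called, against 54.1% of all tested genes, and a median log2 fold change of 0.21). The tetraspanins of the TspanC8 group, which escort ADAM10 to the cell surface, did not rise with ADAM10. Of 6 genes 0 rose, 3 fell and 3 were not called, beside 27.2% of all tested genes called higher and 26.9% called lower. TSPAN5 had 292 and 399 counts in MET+ and 191 and 184 in MET-KO libraries (log2 fold change -1.10, adjusted p = 5.39e-08). TSPAN14, another escort, had 401 and 552 against 274 and 253 counts (log2 fold change -1.07, adjusted p = 1.03e-08). TSPAN17, on chromosome 5 with its median of -0.43, had a log2 fold change of -0.71 (adjusted p = 1.91e-05). TSPAN15, TSPAN33 and TSPAN10 had log2 fold changes of -0.31, 0.08 and 0.39 and were not called. The groups overlapped for TSPAN33.

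The partners of ADAM17 went both ways. RHBDF1 and RHBDF2 encode the iRhom proteins that carry ADAM17 out of the endoplasmic reticulum, and both rose slightly, with log2 fold changes of 0.37 and 0.55 (adjusted p = 0.0219 and 0.00516). FRMD8, which stabilizes the complex of iRhom and ADAM17, had 1290 and 1788 counts in MET+ and 1283 and 1113 in MET-KO libraries, and was called lower after scaling (log2 fold change -0.57, adjusted p = 1.82e-05). Of the proprotein convertases that remove the inhibitory prodomain of ADAMs, MMP11 and the membrane-type MMPs, FURIN, PCSK6 and PCSK7 were not called (log2 fold changes of -0.19, -0.15 and 0.21). PCSK5 rose from 17 and 22 counts to 70 and 82 (log2 fold change 1.73, adjusted p = 3.06e-05). These are mRNA levels, and whether the convertases are active in LoVo cells was not measured. The paper describes the MET receptor of LoVo cells as uncleaved, an alteration that it places after translation.

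Some genes of the list that rose also have other roles. LCN2, a secreted iron-carrier-binding protein that forms a complex with MMP9, had 12 and 23 counts in MET+ and 2802 and 2658 in MET-KO libraries (log2 fold change 7.06, adjusted p = 2.01e-27), while MMP9 had at most 1 count. TGM2, a protein crosslinking enzyme that is cut by membrane-type MMPs, had 0 and 1 counts in MET+ and 341 and 418 in MET-KO libraries, 649-fold higher with a counting interval of 116 to 25684. CLU, a secreted chaperone that can bind MMPs, had 229 and 289 against 5101 and 4911 counts (log2 fold change 4.05). CD44, a hyaluronan receptor that docks MMPs at the membrane and is itself shed, had a log2 fold change of 1.49 (adjusted p = 4.92e-15), and BSG, known as an inducer of MMPs, of 0.58 (adjusted p = 4.59e-05).

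Among the genes of the list that fell, PAPLN, a secreted inhibitor of ADAMTS proteases, had 9 and 15 counts in MET+ and 0 and 0 in MET-KO libraries, at least 4.61-fold lower. SPOCK1, a proteoglycan that inhibits membrane-type MMP activation, had 44 and 50 against 1 and 1 counts, 54.9-fold lower with a counting interval of 14.8 to 460. CD9, a tetraspanin that associates with ADAM10 and ADAM17, fell with a log2 fold change of -1.31. RECK, a membrane inhibitor of MMPs and ADAM10, had 21 and 16 counts in MET+ and 38 and 43 in MET-KO libraries and missed the threshold (adjusted p = 0.0511).

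Of 37 genes whose products ADAMs or membrane-type MMPs shed, 32 were tested, and 13 rose, 15 fell and 4 were not called (87.5% called, against 54.1% of all tested genes, and a median log2 fold change of -0.35). The ligands of the EGF receptor that ADAM17 and ADAM10 release did not move together. EREG had 3119 and 3473 counts in MET+ and 49 and 59 in MET-KO libraries (log2 fold change -6.16, adjusted p = 2.21e-28), and AREG 3138 and 3798 against 90 and 107 (log2 fold change -5.36, adjusted p = 8.81e-28). HBEGF and BTC also fell, with log2 fold changes of -1.58 and -0.98, whereas TGFA rose (0.89). NRG1, a ligand that ADAM17 and ADAM19 shed, had 0 and 0 counts in MET+ and 91 and 110 in MET-KO libraries, at least 28.4-fold higher, in the same libraries in which ADAM19 had 1 and 0. TNF, the cytokine released by ADAM17, had 0 and 0 against 18 and 38 counts, at least 7.85-fold higher.

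The shed receptors and adhesion molecules also split. The receptor kinase AXL had 8 and 13 counts in MET+ and 436 and 401 in MET-KO libraries (log2 fold change 5.08). The adhesion molecule L1CAM had 25 and 46 against 384 and 457 counts (log2 fold change 3.34, adjusted p = 2.39e-16). The TNF receptor gene TNFRSF1A fell (log2 fold change -2.11), as did ALCAM, an adhesion molecule cut by ADAM17 (-2.01), and the ADAM10 target CDH1, which encodes E-cadherin (-0.88). Of the Notch receptors, NOTCH1 and NOTCH2 rose, with log2 fold changes of 0.64 and 0.70, and NOTCH3 was not called (-0.28). MET itself is shed by ADAMs and is counted in this list.

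Of 23 genes of the AP-1 and ETS transcription factors, which bind many MMP promoters, 20 were tested, and 8 rose, 6 fell and 6 were not called (70% called, against 54.1% of all tested genes, and a median log2 fold change of -0.16). ETV1, an ETS factor on chromosome 7, had 13 and 4 counts in MET+ and 196 and 219 in MET-KO libraries (log2 fold change 4.36). FOSL2 had 285 and 300 against 989 and 987 counts (log2 fold change 1.53), and ETS1 22 and 23 against 72 and 75 (log2 fold change 1.48). Of the other AP-1 genes, FOSB rose from few counts (1.89), and FOSL1 (-2.03) and JUN (-0.65) fell. The epithelial ETS factor EHF and ETS2 fell, with log2 fold changes of -1.43 and -1.08. The secreted MMP genes of chromosome 11, among them those whose AP-1 letters are shown above, had at most 2 counts in the libraries of both groups.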

How the data were processed

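Total RNA of 4 LoVo samples was prepared with the QuantSeq 3' forward kit. The authors deposited whole-number read counts per gene for each library, without normalization. The submitters' processing notes name cutadapt 1.16, STAR 2.5.4a, featureCounts 1.6.2, DESeq2 1.18.1 and GRCh38, whereas the annotation and strand setting are not given in the sources used here. Gene names and positions came from GENCODE version 29, which held 58552 of the 58825 gene IDs, and 99 spike-in rows with 0 counts were left out. Reads carry no molecular identifiers, so counting intervals and limits cover counting error only.

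Starting from these counts, genes were filtered with filterByExpr by group, which left 13801 of 23153 genes with a count. Libraries were scaled by TMM (factors 0.983, 0.949, 1.01 and 1.06) and tested over all genes with edgeR 4.0.16 in R 4.3.3, by the quasi-likelihood test with the condition as the only term and Benjamini-Hochberg adjustment at 0.05. All adjusted p-values are from this test unless another is named. The standard errors printed and drawn were derived from it, as the absolute log2 fold change over the square root of its F statistic. DESeq2's Wald test gave larger ones for ADAM10 (0.121 against 0.099) and MMP25 (1.04 against 0.67). A gene at 0 in a group was given 3 counts per library as its limit, and a gene with 1 to 3 counts in a group a ratio with an exact 95% counting interval. The log2 correlation of replicates was 0.985 and 0.990, and that of replicate 1 minus replicate 2 between groups was -0.02. Samples of equal number thus shared no deviation over the tested genes. This cannot tell whether they were prepared as pairs. Replicates differed by more than counting noise (chi-square per degree of freedom 5.45 and 4.86).

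The members and lists were chosen with earlier results of these data known. Named genes are all tested members, and for each list the 4 highest and 4 lowest log2 fold changes among its called genes, and the members' direct partners and ligands. Classes of members by role were written after their values were seen. Alternatives were DESeq2 size factors, library totals alone, the Wald test of DESeq2 1.42.0, omission of the filter, a minimum of 10 counts per library, a replicate block, a log2 fold change of at least 1 in size, and leaving out each library. A search for the zinc-binding site in protein sequences was not run. The fit was tested on simulated data. Plots used matplotlib 3.10.9 in Python 3.11.15.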

Additional observations from a re-analysis of the deposited data

How the results depend on the processing

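The number of members called was 19 with DESeq2 size factors, library totals alone, no filter or the replicate number as a block, 18 with DESeq2's Wald test, and 16 to 20 when each library was left out. The replicate block called 7055 genes in all, of which 7035 were among the 7467, and it changed no call among the members. Library totals alone moved the median log2 fold change of the members to 0.63 and that of all tested genes to 0.11. With at least 10 counts in every library, 18 members could be tested, 13 were called, 9 of them higher, and the median was 0.43. In that fit 6219 of all 11844 genes tested were called. Of all 13801 genes, 5760 were called with DESeq2's Wald test, 7482 with DESeq2 size factors and 7361 with library totals alone. Without the filter, 7547 of 23153 were called. With a log2 fold change of at least 1 in size, 3355 of all genes were called, 5 higher and 5 lower among the regulators, 7 and 7 among the shed substrates, and 5 and 3 among the AP-1 and ETS genes. MMP25 lost its call with the Wald test and without MET+ replicate 2, MET-KO replicate 1 or MET-KO replicate 2 (adjusted p = 0.134, 0.105 and 0.105). ADAMTSL4 lost its call and ADAMTS16 could not be tested without MET-KO replicate 2, and ADAM17 gained one without replicate 1 of either group. ADAMTS13 changed sign with the replicate block (-0.0079), without MET+ replicate 1 (-0.23) and without MET-KO replicate 1 (-0.60), and ADAM8 without MET+ replicate 2 (0.62). Without MET-KO replicate 2, the values of ADAM8 and ADAMTS13 were -2.03 and 0.48, and neither was called in any of these fits. The cause of these shifts was not tested, except that fewer genes or libraries enter by construction. With 2 libraries a group, values of few counts are limited by depth, among them those of MMP25, ADAM8 and ADAMTS13.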
